A study of Mus musculus with 68 samples.

Results

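The 8 genes Edn1, Edn3, Ednra, Ednrb, Ece1, Nos3, Klf2 and Klf4, which encode the endothelin system and flow-responsive vasomotor proteins of the vessel wall, were followed through RNA-seq libraries of mouse endothelial cells. They were chosen by symbol. They are 8 of the 37991 lines of the table, with a symbol listed more than once represented by its line of highest mean. The 68 libraries fall into 25 groups. Healthy cells of brain and of 4 peripheral organs (heart, kidney, lung, liver) were set beside whole brain, and CNS endothelial cells after 4 kinds of injury were set beside controls. The injuries were epilepsy, MCAO stroke (occlusion of the middle cerebral artery) and TBI (traumatic brain injury), each in brain endothelial cells, and EAE (experimental autoimmune encephalomyelitis, a model of multiple sclerosis) in spinal cord endothelial cells, each at an acute, a subacute and a chronic stage.

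Epilepsy, EAE and stroke had 1 control group of 3 libraries and 3 libraries per stage, so the 3 stages of each of these models share their control. TBI had a control group for each stage, of 3, 2 and 2 libraries, and 3 injured libraries per stage. Of the healthy groups, brain endothelial cells, brain vascular cells and the 4 organs had 2 libraries each, and whole brain had 4. The 2 brain endothelial libraries came from the forebrain of adult male mice of the genotype Rosa-tdTomato; VE-Cadherin-CreERT2. These mice were given tamoxifen so that a red reporter marked cells in which the VE-Cadherin promoter, active in endothelium, had driven Cre. The other 66 libraries share a description of sorted endothelial cells that names no strain, age, sex, method of injury or hour of collection, and whole brain carries it too. The brain vascular libraries are labelled as brain endothelial cells by source, and their sort is not described further. Organ and preparation cannot be told apart for the brain endothelial libraries, which alone were made with the reporter and another digestion. The labels do not say whether replicates were separate animals, so p-values measure the spread between libraries, which may be technical.

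Endothelins are short peptides cut from large precursors, the last step being carried out by endothelin-converting enzyme (Ece1). Endothelin-1 (Edn1) acts on the type A receptor (Ednra) of smooth muscle cells and pericytes to constrict vessels, whereas the type B receptor (Ednrb) of endothelial cells takes up endothelin and triggers release of nitric oxide. Endothelial nitric oxide synthase (Nos3) makes that relaxing gas, and the transcription factors Klf2 and Klf4 are switched on by laminar blood flow through MEK5, ERK5 and MEF2 proteins; in cultured endothelium they raise Nos3 and lower Edn1.

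The 2 ligand genes encode mature peptides that share their C-terminal part, and their codons are printed because these ligands behaved differently across organs and injuries. The sequences are the 63 bases for the 21 residues of each peptide, from the GENCODE M21 transcripts of GRCm38, with capitals in Edn3 at the bases that differ from Edn1. Edn1 lies on chromosome 13 and Edn3 on chromosome 2.
Edn1: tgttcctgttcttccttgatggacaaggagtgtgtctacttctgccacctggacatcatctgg
Edn3: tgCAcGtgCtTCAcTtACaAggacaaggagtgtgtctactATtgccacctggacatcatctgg
The 2 genes differ at 13 of the 63 bases and in 6 of the 21 residues, and most of the differences lie in the first part of the peptide.

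Values are in CPM, the reads of each library scaled by the authors to a total of 1000000, so levels are compared between groups for 1 gene and not between genes of different length. Library depth, recovered from the smallest step of each column, was 18.8 to 38.8 M reads, with a median of 27.3 M. The 2 mitochondrial ribosomal RNA genes took 12.2 to 51.8% of the reads. The 15 endothelial markers summed to 6762 to 16301 CPM in the 64 sorted libraries and to 138 to 213 CPM in whole brain. The libraries also held RNA of mural cells, the smooth muscle cells and pericytes around vessels. The 16 mural markers summed to 4225 and 5271 CPM in brain vascular cells but to 706 and 795 CPM in brain endothelial cells, with no marker at 0 in both libraries of either group. In bulk samples, a change in the share of a cell type and a change in RNA per cell cannot be told apart. Fold changes below are log2 differences of CPM + 1 ± SE, tested with limma, and a gene was called at an adjusted p under 0.05.

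Among healthy groups, Edn3 was highest in the sorted brain groups and Ednrb in the 4 peripheral organs. Edn1, Ece1, Nos3, Klf2 and Klf4 were read in endothelial cells of every organ, brain included. Against the mean of heart, kidney, lung and liver, brain endothelial cells differed in 4 of the 8 genes, while 31.6% of all tested genes were called. Edn3 and Nos3 were higher, and Ednra and Ednrb were lower. Brain vascular cells differed from the organs in 5 of the 8, beside 22.2% of all genes, with Edn1, Edn3 and Ednra higher and Ednrb and Ece1 lower. Against whole brain, all 8 genes were called in brain endothelial cells, beside 57.7% of all genes, 6 of them higher and Ednra and Ednrb lower. The median log2 difference over all genes was -0.14 against the organs and -0.11 against whole brain.

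**Figure D1:**
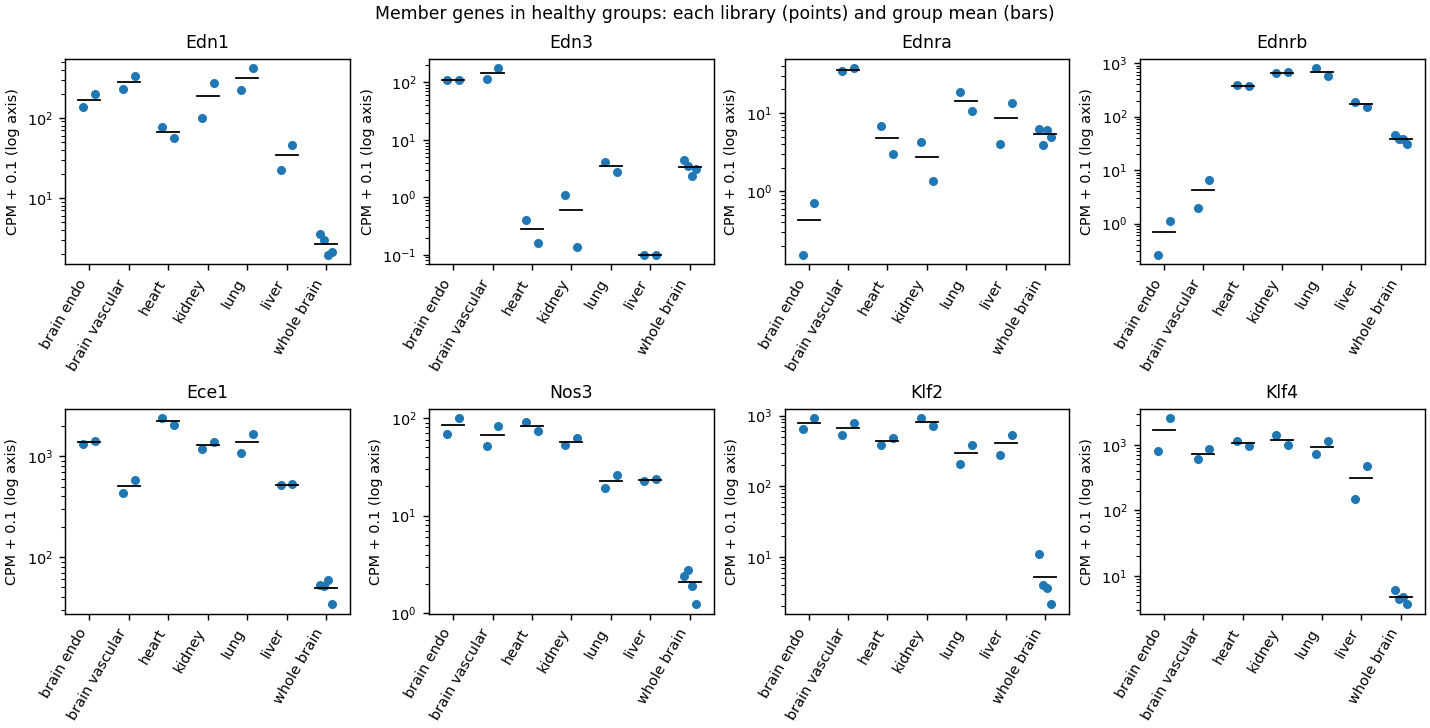
CPM + 0.1 of each of the 8 genes on a log axis in the 7 healthy groups; points are libraries and bars are group means. Edn3 stands at 109 to 176 CPM in the sorted brain groups and at 4.05 CPM or less in the 4 organs, and Ednrb shows the opposite order, with 153 to 800 CPM in the organs and 6.46 CPM or less in the sorted brain groups. Whole brain stands apart, at 2.21 to 4.43 CPM for Edn3 and 30.8 to 45.6 CPM for Ednrb.

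Edn3, whose peptide prefers the type B receptor and is best known for guiding neural crest cells, was read at 109 and 111 CPM in brain endothelial cells and at 115 and 176 CPM in brain vascular cells. It was read at 4.05 and 2.64 CPM in lung, 0.985 and 0.0373 CPM in kidney and 0.301 and 0.0584 CPM in heart. No read fell on it in either liver library. Both brain groups lay above every organ library. The log2 difference between brain endothelial cells and the organ mean was 6.08 ± 0.30, adjusted p = 3.65e-09, and against lung, the highest organ, it was 4.69 ± 0.38, adjusted p = 5.7e-07. Against liver, brain endothelial cells were at least 968-fold higher when liver is set to a floor of 3 reads per library. Whole brain held 2.21 to 4.43 CPM, so the gene was enriched in brain endothelial cells over the tissue by 4.72 ± 0.33, adjusted p = 1.42e-08. The brain vascular libraries lay just above the brain endothelial ones but the difference did not pass the test (0.37 ± 0.38, adjusted p = 0.653).

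Edn1, the main vasoconstrictor of endothelium, was highest in lung, at 223 and 413 CPM, followed by brain vascular cells at 227 and 335, kidney at 98.7 and 271 and brain endothelial cells at 138 and 200.4 CPM. These 4 groups overlapped with their neighbours in that order. Heart, at 76.2 and 55.6 CPM, and liver, at 22.3 and 45.2 CPM, lay below them. Whole brain was lowest, with 1.84 to 3.42 CPM. The 4 organs differed among themselves (limma F test, adjusted p = 0.000429), and 7 of the 8 genes passed this test, beside 34.1% of all genes; the Ednra call among them was lost in 6 of 14 alternatives. In the single contrasts named here and below, 18.4% of all genes were called for lung against liver, 10.7% for heart against lung, 24.9% for heart against liver, 21.9% for kidney against liver, 24.5% for brain endothelial cells against lung and 31.8% for them against liver. Lung exceeded liver by 3.21 ± 0.47, adjusted p = 0.000173 and heart by 2.20 on the log2 scale (adjusted p = 0.00677), the latter not called without the second library of either organ (highest adjusted p 0.0692). Brain endothelial cells exceeded liver (2.35 ± 0.47, adjusted p = 0.0016) but did not differ by the test from the organ mean (0.71 ± 0.37, adjusted p = 0.166). The brain vascular difference from the organs (1.44 ± 0.37, adjusted p = 0.012) was lost without the second brain vascular library, where it was 1.16 with an adjusted p of 0.154.

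Ece1, the converting enzyme, was highest in heart, at 2395 and 2027 CPM. Lung held 1072 and 1680.3 CPM, brain endothelial cells 1335 and 1412 CPM and kidney 1177 and 1386 CPM, and these 3 groups overlapped. Liver, at 516 and 532 CPM, and brain vascular cells, at 429 and 587 CPM, formed a lower pair that also overlapped. Whole brain held 33.9 to 59.1 CPM. Heart exceeded liver by 2.07 ± 0.28, adjusted p = 9.39e-05. The brain vascular value lay under the organ mean (-1.24 ± 0.22, adjusted p = 0.000969) and under brain endothelial cells (-1.45 ± 0.28, adjusted p = 0.00826; without the first brain vascular library -1.22 with an adjusted p of 0.0817), whereas brain endothelial cells did not differ by the test from the organ mean (0.21 ± 0.22, adjusted p = 0.522). The position of brain against the other organs for this gene differed with the brain group that was used.

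Ednrb, the receptor that clears endothelin and couples to nitric oxide in endothelium, was read at 799.9 and 588 CPM in lung, 653 and 679 CPM in kidney, 391 and 372 CPM in heart and 186 and 153 CPM in liver. Brain vascular cells held 1.85 and 6.46 CPM and brain endothelial cells 0.16 and 1.03 CPM, the latter from 3 and 22 reads. Lung and kidney overlapped, and every other step of the order was without overlap. The log2 difference between brain endothelial cells and the organ mean was -8.08 ± 0.30, adjusted p = 2.36e-10, and for brain vascular cells it was -6.49 ± 0.30, adjusted p = 2.81e-09. Whole brain, at 30.8 to 45.6 CPM, lay between the organs and the sorted brain cells, above brain endothelial cells by 4.66 on the log2 scale (adjusted p = 1.76e-08). The 11 astrocyte markers summed to 3603 to 4668 CPM in whole brain and to 118 and 156 CPM in brain endothelial cells; their part in the Ednrb level was not tested. Liver lay below kidney (1.97 ± 0.38 for kidney over liver, adjusted p = 0.00181).

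Ednra, the constricting receptor of smooth muscle and pericytes, was read at 34.7 and 37.1 CPM in brain vascular cells, 18.3 and 10.4 CPM in lung, 3.94 and 13.2 CPM in liver, 6.62 and 2.89 CPM in heart and 4.10 and 1.23 CPM in kidney. Brain endothelial cells held 0.0533 and 0.608 CPM, from 1 and 13 reads. Brain vascular cells stood above and brain endothelial cells below every organ library, and the organs overlapped with their neighbours in the order. The 2 brain groups differed by 4.83 ± 0.54, adjusted p = 0.000151. In the same comparison 3 of the 8 genes were called, beside 7.77% of all genes, with the call of Ednrb (1.59 ± 0.38, adjusted p = 0.0244) lost when the second brain vascular or the first brain endothelial library was left out, with adjusted p up to 0.159, and 14 of 16 mural markers were higher in brain vascular cells, with a median log2 difference of 3.50. The direction against the organ mean depended on the brain group, at -2.41 ± 0.42, adjusted p = 0.000647 for brain endothelial cells and 2.42 ± 0.42, adjusted p = 0.000808 for brain vascular cells. The 16 mural markers summed to 157 to 848 CPM in the organ libraries.

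Nos3 was read at 68.2 and 100.0 CPM in brain endothelial cells, 90.3 and 73.9 CPM in heart, 51.7 and 82.5 CPM in brain vascular cells and 52.4 and 62.0 CPM in kidney. Liver, at 22.7 and 23.8 CPM, and lung, at 18.9 and 26.2 CPM, were lower and overlapped each other. The first 4 groups overlapped with their neighbours and all lay above liver and lung. Brain endothelial cells exceeded the organ mean by 1.04 ± 0.26, adjusted p = 0.00708, lung by 1.84 ± 0.33, adjusted p = 0.00078 and liver by 1.79 ± 0.33, adjusted p = 0.000774. Without the second brain endothelial library, the difference from the organ mean was 0.77 with an adjusted p of 0.0864. Heart exceeded lung by 1.83 ± 0.33, adjusted p = 0.00181, while Edn1 was higher in lung than in heart. Brain vascular cells did not pass the test against the organ mean (0.71 ± 0.26, adjusted p = 0.0661), but did so by edgeR (0.92, adjusted p = 0.00738).

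Klf2 did not differ by the test among the 4 organs (limma F test, adjusted p = 0.137). It was read at 918 and 707 CPM in kidney, 642 and 924 CPM in brain endothelial cells, 533 and 787 CPM in brain vascular cells, 381 and 485 CPM in heart, 281 and 536 CPM in liver and 205 and 378 CPM in lung. Klf4 differed among organs (adjusted p = 0.0164), with liver at 147 and 472 CPM against 1402 and 988 CPM in kidney, 1146 and 969.6 CPM in heart and 731 and 1126 CPM in lung. The 2 liver libraries stood below every other organ library, and without the first of them the adjusted p was 0.282, and by edgeR it was 0.0709. The brain endothelial libraries were far apart, at 794 and 2562 CPM, and their difference from the organ mean was not called by limma (0.95 ± 0.42, adjusted p = 0.102) but was by edgeR (1.20, adjusted p = 0.0276) and without the first brain endothelial library (1.79, adjusted p = 0.0146). Their 15 immediate early genes, which respond within minutes to stress and to dissociation, summed to 21647 and 43419.5 CPM, against 9246 and 13351 CPM in brain vascular cells; the part of that response in Klf2 and Klf4 was not tested. Against whole brain, where Klf2 stood at 2.02 to 10.8 CPM and Klf4 at 3.55 to 5.92 CPM, brain endothelial cells were higher by 7.19 ± 0.45 for Klf2 and 8.02 ± 0.46 for Klf4.

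Other genes of these pathways were counted from lists in the comparison of brain endothelial cells with the organ mean. Of 14 genes of the nitric oxide and cGMP pathway, 5 were higher and 4 lower, among them Ddah1, which degrades an inhibitor of nitric oxide synthases (2.17), neuronal nitric oxide synthase Nos1 (2.49) and Nostrin, which binds endothelial nitric oxide synthase (1.37), all higher. Of 14 other vasoactive genes, 11 were lower and 0 higher, led by the natriuretic peptide clearance receptor Npr3, which had no read in brain endothelial cells and a mean of 419 CPM over the organs, the prostaglandin synthase Ptgs1 (-6.77) and the CGRP and adrenomedullin receptor Calcrl (-2.23). In the list of 12 flow and KLF targets 2 were higher and 5 lower, the latter including the water channel Aqp1 (-9.62). Of the 11 genes upstream of KLFs, Mef2d alone was called (1.03), and of 3 measured relatives of the endothelin system, the peptidase Mme was lower (-1.02). The medians of these lists were 0.10, -1.96, -0.28, 0.15 and -0.28, beside -0.14 for all genes. Of all genes, 11% were higher and 20.6% lower in this comparison.

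After injury, Edn3 was the gene most often called lower by limma in the reported fit. Edn1 moved in opposite directions in epilepsy and TBI at the acute stage. Klf4 lay below control in each of the 12 comparisons, with 3 of these called. Edn3 lay below control in 11 of 12 comparisons and was called lower in 5. With quantile scaling, without the mitochondrial ribosomal RNA genes or by edgeR it lay below control in 10, and was called lower in 4, 3 and 4. Each of these scalings lost the Edn3 calls in stroke, while subacute EAE was called with quantile scaling and by edgeR. The Klf4 counts were the same under these 3 scalings. Its difference was near 0 in subacute TBI (-0.01), and against all TBI controls together it was 0.50 in chronic TBI. With 1 library left out it reached 0.54 in subacute TBI and 0.20 in chronic epilepsy. Ednrb was called higher in 2 comparisons, Nos3 higher in 1, Klf2 lower in 2, Ednra higher in 1, Edn1 higher in 1 and lower in 2, and Ece1 in 0. Comparisons within epilepsy, EAE and stroke share controls and are not independent of each other.

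**Figure D2:**
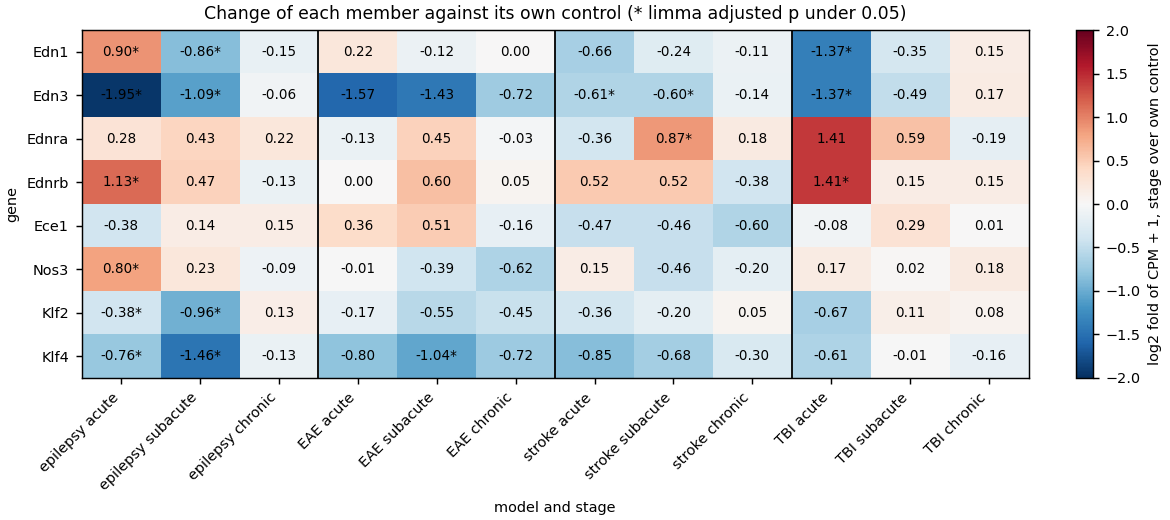
Log2 difference of CPM + 1 between each injured group and its own control, with genes in rows and models and stages in columns; an asterisk marks a limma adjusted p under 0.05. The epilepsy acute column holds 6 called genes, and the Edn3 row is blue in 11 of 12 columns.

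The called members have to be read against all genes. In epilepsy, 6 of the 8 were called at the acute stage, beside 42.5% of all genes, 4 at the subacute stage, beside 15.6%, and 0 at the chronic stage, beside 0.0655%. In EAE the counts were 0, 1 and 0, beside 1.25%, 11.6% and 2.46% of all genes. In stroke they were 1, 2 and 0, beside 1.42%, 7.85% and 0%, and in TBI 3, 0 and 0, beside 5.44%, 1.36% and 0%. Where limma called 0 members, an unadjusted p under 0.05 was reached by 0 members in epilepsy chronic, 2 in EAE acute, 2 in EAE chronic, 1 in stroke chronic, and 0 in TBI subacute and chronic, and edgeR called 0 members in each of these 6 comparisons. The median fold of all genes was -0.22 in epilepsy acute, and -0.11, -0.14 and -0.15 in the stages of stroke, so that small negative values there lie near that of the average gene.

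Edn1 rose in acute epilepsy and fell in acute TBI. In epilepsy, control libraries held 247, 296 and 364 CPM, acute ones 485, 555 and 647, subacute ones 153, 122 and 238 and chronic ones 239, 214 and 377 CPM. All acute libraries lay above and all subacute libraries below the controls, while the chronic group overlapped with them. The acute difference was 0.90 ± 0.24, adjusted p = 0.00608, with 0.58 and 0.0597 under quantile scaling. The subacute difference was -0.86 ± 0.24, adjusted p = 0.0224, and it lost the call without the filter on low values and without control library 3, subacute library 1 or subacute library 2, where the highest adjusted p was 0.108. The fall from the acute to the subacute stage was -1.76 ± 0.24 (adjusted p = 2.25e-05); between these stages 6 of the 8 genes were called, 4 by edgeR and 4 with quantile scaling, beside 49.7% of all genes.

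In TBI, the acute controls held 369.6, 301 and 343 CPM of Edn1 and the acute injured libraries 150.0, 106 and 137 CPM, without overlap (-1.37 ± 0.16, adjusted p = 0.00018). The controls of later stages were lower, at 196 and 214 CPM and 246 and 188 CPM. Against the 7 TBI controls together the acute difference was -0.98 with an adjusted p of 0.00461. Subacute TBI libraries, at 190.0, 139 and 155 CPM, lay below their controls without passing the test (-0.35 ± 0.18, adjusted p = 0.441), and chronic ones, at 244, 247 and 224 CPM, overlapped with theirs. In stroke, controls held 326, 293 and 336 CPM and acute libraries 268, 151 and 198 CPM, a difference that did not pass the test (-0.66 ± 0.17, adjusted p = 0.0577), but did without the first acute library (-0.87, adjusted p = 0.0184). The EAE groups, from spinal cord, ranged from 73.1 to 132 CPM with control and injured libraries overlapping at each stage. The acute Edn1 fold differed between the 4 models (limma F test of the folds, adjusted p = 4.28e-07), and Edn1 was the only one of the 8 genes called by this test, beside 31.3% of all genes. At the subacute and chronic stages the same limma F test called 0 of the 8, beside 7.46% and 2.42% of all genes; an unadjusted p under 0.05 was reached by 2 of them at the subacute stage, Klf2 and Klf4, and by 0 at the chronic stage, and edgeR was not run for these tests.

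**Figure D3:**
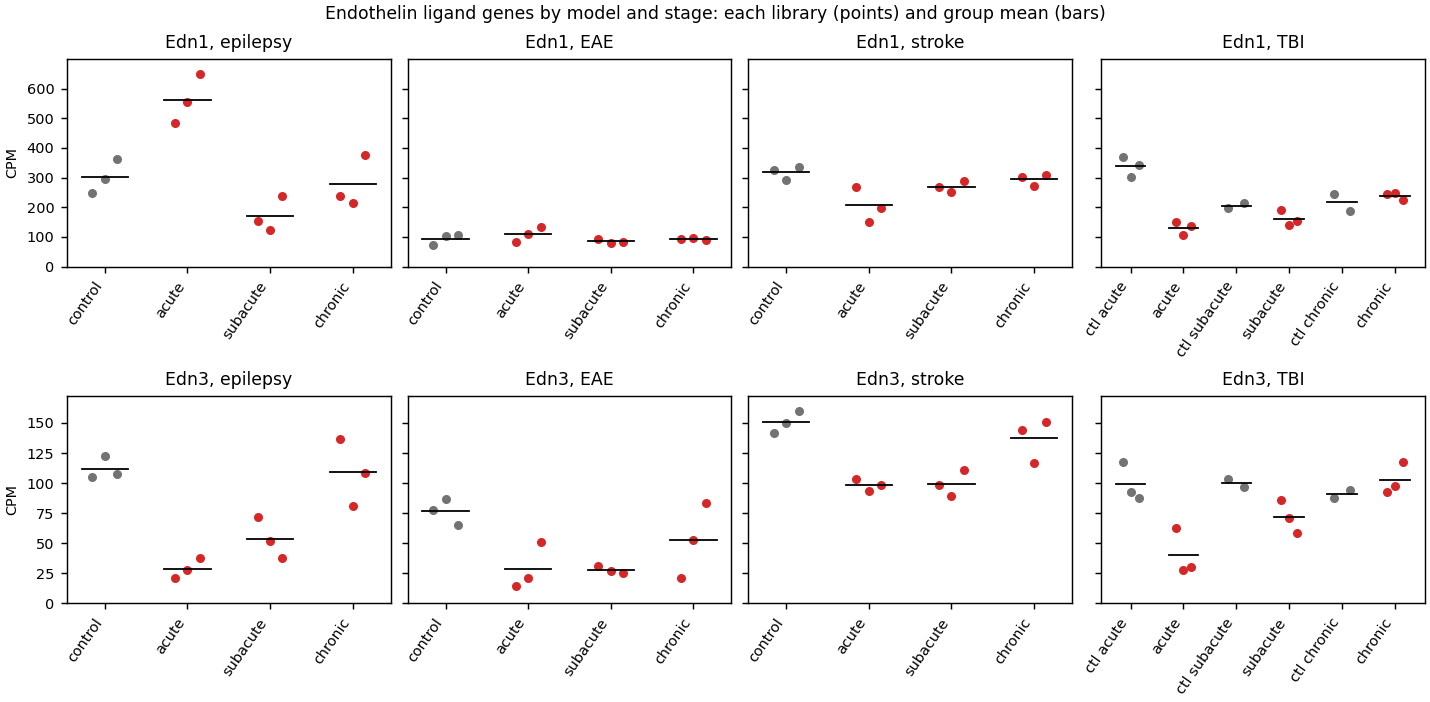
CPM of Edn1 (top) and Edn3 (bottom) in each library of the 4 models, with grey points for controls, red points for injured libraries and bars for group means. Edn1 stands at 485 to 647 CPM in acute epilepsy, above its controls, and at 106 to 150.0 CPM in acute TBI, below its controls, while Edn3 lies below its controls in the acute groups of all 4 models.

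Edn3 was lower than control at the acute stage of every model, with 3 of the 4 differences called in the reported fit. In epilepsy it went from 105, 122 and 108 CPM in controls to 21.3, 27.6 and 37.5 CPM in acute libraries (-1.95 ± 0.23, adjusted p = 1.2e-05). It stood at 71.6, 51.4 and 38.0 CPM in subacute libraries (-1.09 ± 0.23, adjusted p = 0.00555) and at 137, 81.1 and 109 CPM in chronic ones (-0.06 ± 0.23, adjusted p = 0.931). The acute and subacute libraries all lay below the controls and the chronic ones overlapped with them. By limma, Edn3 was higher at the subacute than at the acute stage (0.87 ± 0.23, adjusted p = 0.00615), which was not called by edgeR (0.54, adjusted p = 0.0752) or with quantile scaling (0.57, adjusted p = 0.0621). It was higher again at the chronic than at the subacute stage (1.02 ± 0.23, adjusted p = 0.0178), in a comparison with 3 of 8 members and 4.95% of all genes called. That call was lost without the filter and without subacute library 2 or 3 or chronic library 1 or 3, with adjusted p up to 0.105. Both falls below control were called under each of the 14 alternatives tried.

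In TBI, Edn3 was read at 118, 92.5 and 87.5 CPM in acute controls and 62.7, 27.3 and 30.4 CPM in acute injured libraries, without overlap (-1.37 ± 0.24, adjusted p = 0.00338). Subacute TBI libraries, at 85.7, 70.8 and 58.6 CPM against 103 and 97.0 CPM, also lay below their controls but did not pass the test (-0.49 ± 0.27, adjusted p = 0.474). Chronic TBI libraries, at 92.3, 97.1 and 117 CPM against 87.1 and 94.2 CPM, overlapped with theirs. The acute call held in 14 of 15 alternatives and was lost, with an adjusted p of 0.0684, when the fit held the 2 compared groups alone.

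In stroke, Edn3 stood at 142, 149.7 and 159.9 CPM in controls, 103, 93.2 and 98.3 CPM in acute and 98.1, 89.2 and 111 CPM in subacute libraries, without overlap between controls and either stage (-0.61 ± 0.12, adjusted p = 0.03 for acute and -0.60 ± 0.12, adjusted p = 0.0109 for subacute). Mitochondrial ribosomal RNA took 35.8 to 38.1% of the reads in acute and 33.4 to 39.4% in subacute stroke libraries, against 23.6 to 31.0% in the controls. With those 2 genes left out, the differences were -0.39 with an adjusted p of 0.0981 and -0.40 with an adjusted p of 0.0582, so neither was called. The acute call was also lost when any 1 of the 6 libraries other than the second control was left out, with adjusted p up to 0.1705, and by edgeR (-0.48, adjusted p = 0.0637). The subacute call was lost without the third control or the second subacute library (highest adjusted p 0.0608) and by edgeR (-0.44, adjusted p = 0.0505). Quantile scaling lost the acute call (-0.36, adjusted p = 0.166) and the subacute one (-0.38, adjusted p = 0.0937). The chronic stroke libraries, at 144, 117 and 151 CPM, overlapped with the controls. In EAE, controls held 77.3, 86.9 and 64.9 CPM, acute libraries 13.9, 21.4 and 50.5 CPM, subacute ones 31.2, 26.6 and 24.9 CPM and chronic ones 21.4, 53.0 and 83.3 CPM. The acute and subacute libraries all lay below the controls, with differences that did not pass the test (-1.57 ± 0.45, adjusted p = 0.11 and -1.43 ± 0.45, adjusted p = 0.0566), and the chronic libraries were spread over both ranges. Without the third acute library the acute difference was -2.07 with an adjusted p of 0.021. The subacute difference was called with quantile scaling (-1.49, adjusted p = 0.0387) and by edgeR (-1.47, adjusted p = 0.0476). It was also called with the replicate block (adjusted p = 0.0415) and with the compared groups alone (adjusted p = 0.000703), in 4 of 14 alternatives together. The acute Edn3 folds of the 4 models did not differ by the F test (adjusted p = 0.0952).

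Ednrb rose in 2 acute groups and Ednra in 1 subacute group. Ednrb was higher in acute epilepsy, at 13.4, 14.5 and 13.002 CPM against 2.71, 6.55 and 9.501 CPM in controls (1.13 ± 0.40, adjusted p = 0.0313), and in acute TBI, at 5.03, 21.7 and 9.88 CPM against 3.54, 3.59 and 2.84 CPM (1.41 ± 0.33, adjusted p = 0.0202). In both, every injured library lay above every control. Even so, the highest Ednrb value of an injured CNS library, 21.7 CPM, lay under the 153 CPM of the lowest organ library. Without the first epilepsy control the difference was 0.71 (adjusted p = 0.155), and it was also not called without any 1 of the acute libraries. The TBI call was lost without the first or second control (highest adjusted p 0.0567) or the second injured library, without which it was 0.91 (adjusted p = 0.0681). When the fit held the 2 compared groups alone, the TBI call was also lost (adjusted p = 0.145). The epilepsy and TBI calls were both lost without the filter on low values, with adjusted p of 0.1056 and 0.0749. The 11 astrocyte markers summed to 227 to 266 CPM in acute epilepsy against 154 to 269 CPM in its controls, and to 244 to 297 CPM in acute TBI against 143 to 246 CPM. In these comparisons 1 of 9 and 1 of 10 measured markers were called higher, beside 11.6% and 3.5% of all genes. The part of astrocyte markers in the Ednrb differences was not tested. In the stroke and EAE stages Ednrb did not pass the test, with values of 3.69 to 18.1 CPM in injured libraries and 3.44 to 7.85 CPM in controls.

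Ednra was higher in subacute stroke, at 52.7, 59.6 and 53.2 CPM against 33.4, 25.1 and 31.0 CPM in controls, without overlap (0.87 ± 0.25, adjusted p = 0.0449). It also exceeded the acute stage, at 15.8, 36.3 and 20.4 CPM (1.24 ± 0.25, adjusted p = 0.00939), a call lost without acute library 1 or subacute library 2 (highest adjusted p 0.058). Between these stages 1 member was called by limma, beside 4.22% of all genes. With quantile scaling, without the mitochondrial ribosomal RNA genes and by edgeR 2 were, Nos3 being lower at the subacute stage by each (-0.65, -0.64 and -0.60). The 16 mural markers summed to 5088 to 6691 CPM in subacute stroke, 4058 to 6064 CPM in its controls and 2632 to 6002 CPM in acute stroke, and none of the 15 measured was called in subacute stroke by limma. The 9 fibroblast markers summed to 424 to 1189 CPM in subacute stroke against 34.4 to 51.4 CPM in controls, with 7 of 8 measured higher, beside 3.66% of all genes. The part of these markers was not tested. The call against control was lost when any 1 of the 6 libraries was left out, with the highest adjusted p at 0.148, and the difference stayed between 0.76 and 0.96. It was also lost without the filter on low values (adjusted p = 0.115) and with replicate number as a block in the limma fit (adjusted p = 0.0616).

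**Figure D4:**
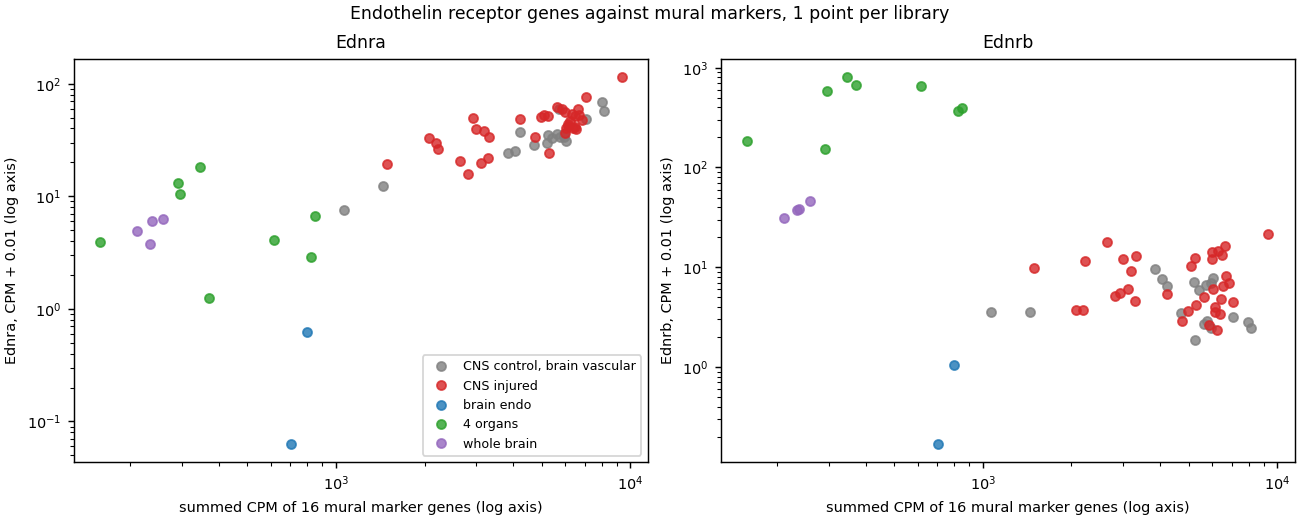
CPM of Ednra (left) and Ednrb (right) in each of the 68 libraries against the summed CPM of 16 mural markers, all on log axes, with a small constant added to the receptor values. In acute TBI and its controls Ednra rises with the mural sum, from 7.52 CPM at a sum of 1069 to 114 CPM at a sum of 9350. In EAE it stands at 26.3 to 33.2 CPM in chronic libraries, with sums of 2077 to 2223 CPM. The EAE controls hold 28.4 to 33.0 CPM at sums of 4727 to 5437 CPM. Ednrb is highest in the 4 organs.

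The acute TBI groups were uneven in mural RNA. Control libraries 1, 2 and 3 had mural sums of 1069, 1445 and 7993 CPM and Ednra at 7.52, 12.2 and 68.4 CPM, and the injured libraries had sums of 5625, 9350 and 1488 CPM and Ednra at 61.7, 114 and 19.3 CPM. The ranges overlapped and the difference did not pass the test (1.41 ± 0.62, adjusted p = 0.227). Without the third control it was 2.31 with an adjusted p of 0.0116. Per 1000 CPM of mural markers, a measure chosen after the values were seen, Ednra stood at 12.0 ± 0.99 (SD, n = 3) in acute TBI and 8.01 ± 0.85 (SD, n = 3) in its controls. The ratios were 10.4 ± 0.38 (SD, n = 3) against 6.36 ± 0.80 (SD, n = 2) in subacute TBI, 9.09 ± 1.30 against 5.62 ± 0.54 (SD, n = 3 each) in subacute stroke and 14.0 ± 2.76 against 5.94 ± 0.18 (SD, n = 3 each) in subacute EAE. Against the same EAE controls it was 8.15 ± 2.80 (SD, n = 3) in acute and 13.8 ± 2.08 (SD, n = 3) in chronic EAE. In each of these 6 comparisons the injured libraries lay above the controls on this scale, and no test was run on the ratio. A ratio also rises where the mural sum falls: in chronic EAE that sum was 2077 to 2223 CPM against 4727 to 5437 CPM, while the Ednra difference in CPM was -0.03 ± 0.27. In acute stroke (6.47 ± 1.14), chronic stroke (5.74 ± 1.02), chronic TBI (6.96 ± 0.55) and the 3 epilepsy stages (6.73 to 8.86 as group means) the ratio overlapped with that of the controls. With the mural level as a covariate in the limma fit, added after seeing the data, the Ednra difference was 0.53 (adjusted p = 0.0386) in acute TBI, 0.70 (adjusted p = 0.0179) in subacute TBI and 0.71 (adjusted p = 0.013) in subacute stroke. It was 2.00 in subacute EAE and 2.52 in chronic EAE and not called there (adjusted p = 0.154 and 0.70), nor in the other 7 comparisons. In every EAE stage and in chronic epilepsy the mural sums did not overlap with those of the controls, so this fit cannot separate mural level from stage there.

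Ece1 was the one of the 8 genes called in none of the 12 comparisons by limma, with its lowest adjusted p of 0.0586 in acute epilepsy, and edgeR called it in none either. Unadjusted p-values under 0.05 were found in acute epilepsy and in chronic stroke. Acute epilepsy libraries held 559.6, 504 and 447 CPM against 542, 692 and 739.9 CPM in controls (-0.38 ± 0.15), and the difference was called with quantile scaling (-0.74) and without the mitochondrial ribosomal RNA genes (-0.48). Between the acute and subacute stages of epilepsy Ece1 was higher by 0.52 ± 0.15, adjusted p = 0.0106, where the median of all genes was 0.33. By edgeR this difference was 0.20 and not called (adjusted p = 0.327), and it was also not called without acute library 3 or subacute library 3 (highest adjusted p 0.0509). EAE libraries spread from 641 to 1925 CPM among the injured against 1047 to 1111 CPM among controls. With the compared groups alone, limma called Ece1 higher in subacute EAE (0.51, adjusted p = 0.0309). It was called lower in chronic stroke without chronic library 1 (-0.87, adjusted p = 0.0259). In subacute stroke it was called lower with the mural level as a covariate (-0.58, adjusted p = 0.048). Each of these was called in 1 of 14 alternatives.

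Nos3 rose in acute epilepsy and was called in no other of the 12 comparisons, with 104, 102 and 131 CPM against 54.3, 65.98 and 71.1 CPM in controls and no overlap (0.80 ± 0.15, adjusted p = 0.000455). The call held under all 14 alternatives. Subacute libraries held 65.5, 79.2 and 80.3 CPM, lower than acute ones (-0.57 ± 0.15, adjusted p = 0.00468), and chronic ones 51.6, 63.1 and 64.2 CPM. In TBI, stroke and EAE the differences from control lay between -0.62 and 0.18 and none passed the test by limma or by edgeR; the lowest unadjusted p-values were 0.0351 in subacute stroke and 0.0408 in chronic EAE. Whether the acute Nos3 folds differ between models did not pass the F test (adjusted p = 0.139).

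Klf2 and Klf4 fell together in epilepsy, with their lowest CPM at the subacute stage. Their upstream windows are printed because the pair moved in the same direction there. Each is 250 bases before the RefSeq start, 5′ to 3′ on the gene's strand, in GRCm38.p6, at chr8:72318812-72319061 on the plus strand for Klf2 and chr4:55532476-55532725 on the minus strand for Klf4. Capitals mark the MEF2 motif and the GC box (GGGCGG), each on either strand.
Klf2: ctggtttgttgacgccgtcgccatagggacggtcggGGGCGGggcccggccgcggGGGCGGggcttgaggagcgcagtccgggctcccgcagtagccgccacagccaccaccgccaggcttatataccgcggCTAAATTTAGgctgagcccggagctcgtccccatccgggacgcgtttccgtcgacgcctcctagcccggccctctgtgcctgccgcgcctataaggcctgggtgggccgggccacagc
Klf4: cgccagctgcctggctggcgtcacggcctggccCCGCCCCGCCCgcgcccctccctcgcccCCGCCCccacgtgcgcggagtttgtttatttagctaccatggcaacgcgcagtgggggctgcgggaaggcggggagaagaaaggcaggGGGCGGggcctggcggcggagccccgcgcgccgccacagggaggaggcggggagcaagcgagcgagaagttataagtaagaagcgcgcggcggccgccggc
The Klf2 window holds the MEF2 motif at -118 and GC boxes at -214 and -195, counted from the start. The Klf4 window holds 4 GC boxes, at -217, -212, -189 and -101, the first 2 of which overlap, and no match to the MEF2 letters. The MEF2 motif was found in 0.508% and the GC box in 32.7% of 32851 mouse windows of this length. A match is a description of the letters and not a site of binding.

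Klf2 went from 489, 580.1 and 446 CPM in epilepsy controls to 374, 375 and 407 CPM in acute, 236, 255 and 284 CPM in subacute and 503, 509 and 649 CPM in chronic libraries. Acute and subacute libraries all lay below the controls. The subacute difference was -0.96 ± 0.13, adjusted p = 0.00026. The acute difference was smaller (-0.38 ± 0.13, adjusted p = 0.0317), near the -0.22 of the median gene, and by edgeR it was -0.13 and not called (adjusted p = 0.469). It was also not called without the second control, without the first or second acute library, without the filter or with the compared groups alone. Klf2 was higher in chronic than in subacute libraries (1.09 ± 0.13, adjusted p = 0.000172).

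Klf4 followed the same course, with 766, 1512 and 769 CPM in controls, 587, 595 and 525 CPM in acute, 339, 309.9 and 404 CPM in subacute and 847, 799.8 and 1003 CPM in chronic libraries. The acute fall was -0.76 ± 0.21, adjusted p = 0.00853, the subacute fall -1.46 ± 0.21, adjusted p = 0.000319 and the rise from subacute to chronic 1.33 ± 0.21, adjusted p = 0.00142. Acute and subacute libraries lay below the controls without overlap, and the second control, at 1512 CPM, stood far above the other two. Both falls of Klf4 and the subacute fall of Klf2 were called under each of the 14 alternatives. In the reported fit both genes were also called lower at the subacute than at the acute stage. With quantile scaling these limma calls were lost (-0.305, adjusted p = 0.0639 for Klf2 and -0.37, adjusted p = 0.1295 for Klf4). Immediate early genes moved beside them, with 12 of 15 lower in subacute epilepsy (median -0.93), 0 higher, and a summed level of 6699 to 8533 CPM against 11109 to 20253 CPM in controls. Of all genes, 4.67% were lower in subacute epilepsy. In acute epilepsy 4 of the 15 were lower and 2 higher, beside 30.9% and 11.6% of all genes. The part of immediate early genes in the fall of Klf2 and Klf4 was not tested.

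In EAE, Klf4 was read at 1134, 1319 and 1072 CPM in controls, 429.8, 822 and 854 CPM in acute, 539, 601 and 573 CPM in subacute and 800.4, 850.1 and 527 CPM in chronic libraries. All injured libraries lay below all controls. The subacute difference was called (-1.04 ± 0.26, adjusted p = 0.0241), and the acute and chronic ones were not (-0.80 ± 0.26, adjusted p = 0.148 and -0.72 ± 0.26, adjusted p = 0.181). The subacute call was lost without any 1 of the controls or without subacute library 1 or 3, with adjusted p up to 0.1002, and the difference stayed between -1.10 and -0.95. Mural sums were 2913 to 3182 CPM in subacute EAE against 4727 to 5437 CPM in controls, without overlap. With the mural level as a covariate the limma difference was -0.59 with an adjusted p of 0.823. Because the mural level follows the groups here, that fit cannot separate it from stage. In subacute EAE it called 13 of all genes, against 1686 without the covariate. There too 11 of 15 immediate early genes were lower, beside 3.56% of all genes. The 15 had a median of -0.97 and a summed level of 7572 to 7926 CPM against 14322 to 18628 CPM in controls. In stroke, Klf4 stood at 1387, 696 and 1386 CPM in controls and 616, 761 and 483 CPM in acute libraries (-0.85 ± 0.28, adjusted p = 0.112), with overlap through the second control. Without that control the acute difference was -1.18 (adjusted p = 0.0308). In acute TBI, Klf2 was read at 225, 215 and 151 CPM against 239, 253 and 488 CPM, without overlap and without passing the test (-0.67 ± 0.27, adjusted p = 0.18), and against the 7 TBI controls together it was called (-0.85, adjusted p = 0.0316). Klf4 did not pass the test there (-0.61, adjusted p = 0.343), nor in subacute stroke (-0.68, adjusted p = 0.129). With the mural level as a covariate, limma called Klf2 (-0.96, adjusted p = 0.00776) and Klf4 (-0.98, adjusted p = 0.0221) lower in acute TBI. The same fit called Klf4 lower in subacute stroke (-0.85, adjusted p = 0.0158). The subacute and chronic TBI libraries overlapped with their controls for both genes.

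**Figure D5:**
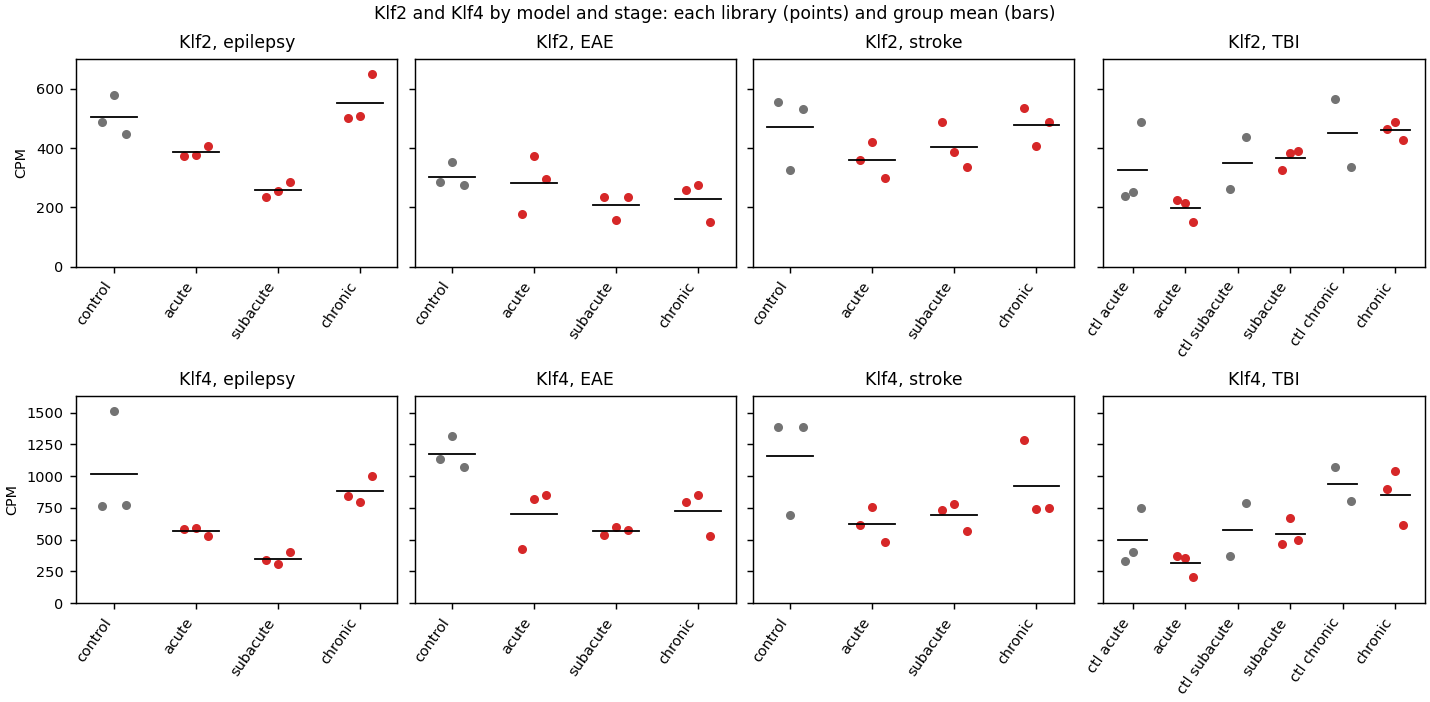
CPM of Klf2 (top) and Klf4 (bottom) in each library of the 4 models, with grey points for controls, red points for injured libraries and bars for group means. In epilepsy both genes are lowest in the subacute libraries, at 236 to 284 CPM for Klf2 and 309.9 to 404 CPM for Klf4, and the chronic libraries are back in or near the range of the controls.

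Other genes of these pathways moved in part with the members. In acute epilepsy, 2 of 14 genes of the nitric oxide and cGMP pathway were higher and 8 lower (median -0.66, beside -0.22 for all genes), with Nostrin at 1.27, inducible nitric oxide synthase Nos2 at -1.90 and Ddah1 at -1.15. Of 12 other vasoactive genes, 5 were higher and 3 lower, and the receptor partner of the adrenomedullin receptor, Ramp3, rose by 3.25 while its receptor Calcrl stood at -2.11. Of 11 genes upstream of KLFs, 5 were higher and 2 lower, led by the stretch-activated channel Piezo1, listed as Fam38a, at 1.17. Of 10 flow and KLF targets, 7 were higher and 1 lower (median 0.75), among them the anticoagulant thrombomodulin Thbd at 1.33 and Angpt2, a ligand that KLF2 and flow lower in culture, at 2.78, while the angiopoietin receptor Tek stood at -1.34. In subacute epilepsy 1 of the 10 targets was higher and 4 lower, and 0 of the 14 nitric oxide genes and 0 of the 11 upstream genes were called by limma. Of all genes, 11.6% were higher and 30.9% lower in acute epilepsy, and 11% and 4.67% in subacute epilepsy.

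The inducible prostaglandin synthase Ptgs2 was higher at each stage of EAE, at 1.65, 1.91 and 2.04, in subacute stroke at 1.29, and in acute and subacute TBI at 1.20 and 1.74. Of 12 measured vasoactive genes 6 were higher in subacute EAE and 0 lower, beside 8.06% and 3.56% of all genes. Angpt2 was higher in acute EAE (0.80), acute stroke (1.15) and acute TBI (1.46). The water channel Aqp1, a gene of peripheral endothelium in the organ comparison, was higher in subacute EAE (4.20) and subacute stroke (1.61), from under 1 CPM in both controls. In chronic EAE 5 of 14 nitric oxide and cGMP genes were lower, beside 0.579% of all genes. Among them were the guanylate cyclase subunits Gucy1b3 (-1.29) and Gucy1a2 (-1.05). There 5 of 15 mural markers were lower, and the mural sum was 2077 to 2223 CPM against 4727 to 5437 CPM in controls. The part of mural RNA was not tested. The 2 measured relatives of the endothelin system were called in none of the 12 comparisons by limma.

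Markers gave these counts in the comparisons with called members. Of all genes, 11.6% were higher and 30.9% lower in acute epilepsy, 11% and 4.67% in subacute epilepsy and 3.66% and 4.19% in subacute stroke. The shares were 3.5% and 1.95% in acute TBI, 8.06% and 3.56% in subacute EAE and 0.43% and 0.995% in acute stroke. Of 15 endothelial markers, 5 were higher and 6 lower in acute epilepsy, 3 and 1 in subacute epilepsy, 0 and 3 in subacute stroke, and 0 and 0 in acute TBI, subacute EAE and acute stroke. Neutrophil markers were higher in acute epilepsy for 2 of 4 measured, with a summed level of 11.3 to 62.5 CPM against 6.41 to 10.6 CPM. Of the 16 microglia and macrophage markers, 0 were called in acute or subacute epilepsy, acute TBI, subacute EAE or acute stroke, and 1 of 6 measured was higher in subacute stroke. Of 4 neuron and 3 oligodendrocyte markers measured in epilepsy, 1 each was lower at the acute stage, and in TBI 0 of 3 and 0 of 3 were called at the acute stage. Of 9 fibroblast markers, 4 were higher and 1 lower in acute TBI.

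As a description of likeness, group means of log2(CPM + 1) were correlated over the 24 sorted groups for 17141 genes; the groups of a model share a control and a described preparation, and no test was made. The genes most like Edn3 were Ddc at 0.983, Slc19a3 at 0.983 and Bche at 0.974. Those most like Ednrb were Sema3f at 0.966, Gnat1 at 0.950 and Plvap, a protein of fenestral diaphragms, at 0.944. Ednra was most like S1pr3 at 0.954, P2ry14 at 0.920 and Sdc2 at 0.918. The highest values were 0.833 for Edn1 with Ptprr, 0.829 with Me3 and 0.820 with Prss23. They were 0.915 for Ece1 with Ewsr1, 0.895 for Nos3 with Ak4, 0.855 for Klf2 with Rhob and 0.867 for Klf4 with Nr3c2. Among the members, Edn3 and Ednrb ran opposite to each other, at -0.908, which rests on the split between CNS groups and the 4 organs. The values of the genes most like Edn3 and most like Ednrb may rest on that split too, and likeness within the CNS groups alone was not computed.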

How the data were processed

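RNA-seq was deposited for 68 mouse libraries, grouped here by their labels. The authors deposited a table of CPM, in which each library sums to 1000000, together with their own log2 fold changes and class marks, which were not used here (per the file headers). Per the submitters' processing notes, mm9 is named among builds, and among tools Subread, featureCounts and TopHat2 2.0.13. Libraries were made with NuGEN Ovation kits, per the labels' protocols.

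Whole reads were recovered by taking each library's smallest nonzero value as 1 read; 100% of nonzero values were whole within 0.001. The highest mean chose among the 3401 repeated symbols. CPM was tested with limma 3.58.1 with a trend (R 4.3.3) on log2(CPM + 1), for genes over 1 CPM in at least 3 libraries (epilepsy, EAE, stroke) or 2 (TBI, healthy groups, fit over the 4 models), with Benjamini-Hochberg adjustment over all tested genes and a threshold of 0.05. A pseudocount of 1 understates folds of low genes. The groups of a model shared 1 fit. Simulated data with the same dispersion for every gene were used to test single comparisons of the epilepsy, TBI and healthy fits. The EAE and stroke fits and the fit over the 4 models were not tested in this way. edgeR 4.0.16 on recovered reads was an alternative. Others were a pseudocount of 0.1, no filter, quantile scaling, mitochondrial ribosomal RNA left out, a replicate block, each library left out, the compared groups alone, all TBI controls together, the brain vascular group used as the brain group and, added after seeing the data, mural level as a covariate. The floor of 3 reads covers counting error only, whereas the SE of a fold comes from the spread between libraries.

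The members and gene lists were chosen with earlier results of these data known. The text names the members, up to 3 called genes of smallest adjusted p per pathway list and comparison, and the 3 genes most like a member. Lists covered relatives of the endothelin system, nitric oxide and cGMP, other vasoactive genes, KLF upstream genes, flow and KLF targets, immediate early genes and markers of endothelial, mural, fibroblast, astrocyte, neuron, oligodendrocyte, microglial and neutrophil cells; 6 symbols were matched by older names. Promoter windows are from RefSeq and coding sequence from GENCODE.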

Additional observations from a re-analysis of the deposited data

Results flagged for a closer look

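The acute change of Edn1 differed between the 4 injury models, which was tested with an F test of the 4 folds in 1 limma fit over all injury and control groups (adjusted p = 4.284e-07). The fold was 0.90 in epilepsy, 0.22 in EAE, -0.66 in stroke and -1.37 in TBI on the log2 scale of CPM + 1. In epilepsy 3 of 3 acute libraries lay above all controls, in TBI 3 of 3 lay below all controls, in stroke 3 of 3 lay below, and in EAE the ranges overlapped. The EAE libraries are from spinal cord and the others from brain, so that model and region cannot be told apart for EAE.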

How the results depend on the processing

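Of 1904 member values under alternative settings, 1803 stayed on the same side of the threshold, 68 lost the call, 31 gained one and 2 reversed. The reversed values came when the brain vascular group stood for brain against the organ mean, where Ednra was 2.42 and Ece1 -1.24. Counts of called members that moved by over 1.5 times, or to or from 0, were these. In subacute EAE (1 in the reported fit) it was 0 without the filter and with the mural covariate, 2 with quantile scaling, by edgeR and with the replicate block, 3 with the 2 compared groups alone, and 0 to 1 with 1 library left out. In acute stroke (1) it was 0 without the filter, with quantile scaling, without mitochondrial ribosomal RNA, by edgeR and with the mural covariate, and 0 to 2 with 1 library left out. In subacute stroke (2) it was 1 in each of the first 4 of these settings and with the replicate block, 4 with the mural covariate and 0 to 2 with 1 library left out. In acute TBI (3) it was 6 with the mural covariate and 1 with the 2 compared groups alone. In subacute TBI (0) it was 1 with the mural covariate. With 1 library left out it reached 0 to 1 in acute EAE and chronic stroke. Acute epilepsy (6) ranged from 4 to 7 and subacute epilepsy (4) from 3 to 5 over all settings, and acute TBI was 2 without the filter and 4 with all TBI controls together. The cause of these changes was not tested. Replicate numbers were not taken as pairs in the reported fit. With 3 pairs, no comparison had every correlation of same-numbered libraries over 0.1, and the range was -0.686 to 0.24. With 2 pairs the correlations were 0.413 to 0.431 in subacute and 0.152 to 0.255 in chronic TBI, all over 0.1. So few libraries cannot settle whether the numbers mark pairs. The replicate block changed 5 of 136 member calls, 2 gained and 3 lost. Groups of 2 or 3 libraries limit each statement, and the 1 to 22 reads behind both receptors in brain endothelial cells limit those folds.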
